A study of Homo sapiens with 11 samples.

Results

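The 10 genes described here are targets of the tumour suppressor p53 that act in cell cycle arrest and in the response to stress: CDKN1A, BTG2, MDM2, ZMAT3, GDF15, SESN1, PHLDA3, RRM2B, TP53I3 and FDXR. They were chosen by symbol, as known targets, from the 58699 genes of the deposited expression table, and each symbol matched 1 row. p53 is a transcription factor that is kept low by constant degradation and builds up when DNA is damaged or ribosome assembly fails. It binds a response element made of a pair of 10-base half-sites, called decamers, and raises genes that halt the cell cycle, supply nucleotides for repair, handle oxidants or kill the cell, and it also raises MDM2, the ligase that degrades it.

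The study used HCT116, a human colorectal cancer cell line, and by its title asks how blocking DNA methylation leads to an immune response through double-stranded RNA of endogenous retroviruses. The 4 groups of total RNA hold 2 libraries each. They are an siRNA to luciferase, a gene the cells lack, with the solvent DMSO (siLuc DMSO), the same siRNA with decitabine (siLuc DAC), an siRNA to Staufen1 with DMSO (siStau1 DMSO) and that siRNA with decitabine (siStau1 DAC). Decitabine (DAC) is a cytidine analog that is built into DNA and traps DNA methyltransferases, and the labels of the DAC groups give a dose of 500 nM and day 5. Staufen1, encoded by STAU1, is a protein that binds double-stranded RNA. All 4 groups therefore carried a transfected siRNA, and the labels do not say that the libraries of a group come from separate cultures, so p-values may measure technical spread only. The 3 further libraries of the series, enriched for double-stranded RNA, are tabulated by repeat element without gene names or positions and were not used here.

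Levels are FPKM, fragment counts divided by transcript length and by the number of mapped fragments, so that genes can be compared with each other. The table gives 1 FPKM per group rather than per library. The spread between replicates is therefore not known, nor is the sequencing depth. A difference was called when its q-value in the authors' deposited table, a p-value adjusted over all tests of all comparisons, was under 0.05. Ratios are log2 of FPKM after adding 0.1 to the value of each group, a step that makes changes of low genes look smaller. In bulk RNA, fewer cells that express a gene and less of its RNA per cell cannot be told apart.

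The level of the targeted gene was examined first. STAU1 was at 35.5 FPKM (DMSO) and 33.7 (DAC) with siLuc, and 30.0 (DMSO) and 27.1 (DAC) with siStau1, lower in the groups labelled siStau1 but not called (the authors' deposited table gives q = 0.768 under DMSO and 0.685 under DAC). Between 13350 and 14342 genes reached 1 FPKM in each group. Of 8 colon epithelial markers, 7 were above 1 FPKM in every group and VIL1 was at 0.198 or less. Their summed level was 2602 FPKM under DMSO and 8204 under DAC in siLuc cells, and 2152 and 5956 in siStau1 cells. KRT8, KRT18 and KRT19 made up most of these sums. KRT20 was called higher with DAC in both arms, from 1.16 to 6.24 FPKM with siLuc and from 3.085 to 20.2 with siStau1. It was also called higher in siStau1 DAC than in siLuc DAC. KRT19 was called higher with DAC in both arms and KRT18 in siStau1 cells only. EPCAM was called lower with DAC in siLuc cells (259 to 117 FPKM). CDX2 was at 7.31 and 7.11 in siLuc cells and at 2.76 and 7.47 in siStau1 cells, DMSO first, and was not called. Summed over their lists, 4 leukocyte markers lay between 0.123 and 2.6 FPKM, 3 endothelial markers between 0.0666 and 1.57, and 4 fibroblast markers between 1.2 and 10.3, each sum higher in both DAC groups. The part of these other lists in the results was not tested.

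RefSeq promoter windows, from 250 bases before to 50 after a start site (GRCh38.p14; the submitters' processing notes name hg38), were found for 8 members, all but PHLDA3 and RRM2B. Their 15 windows were searched on both strands for the p53 response element, the pair of decamers separated by at most 1 base. With at most 1 mismatch no member window matched, and 0.154% of all 35116 windows did. With up to 2 mismatches, a setting added after the data were seen, MDM2 matched, 1 of 8 members. Of all 27305 genes with a window 1.69% did, and of all windows 1.34%. With up to 3, MDM2, SESN1, FDXR and GDF15 matched, 4 of 8 members. Of all genes 11.9% did, and of all windows 9.75%, so these looser matches are common. Members with several windows have more places to match. The best matches of MDM2 and SESN1 lie inside these genes and in no annotated exon (GENCODE 29). Both MDM2 matches lie upstream of RefSeq start sites inside the gene. Among the members' matches with up to 3 mismatches and no spacer, only those of MDM2 and SESN1 lay outside exons. An FDXR match with 3 mismatches and a spacer of 1 base was not checked for exons. The MDM2 and SESN1 matches are shown 5′ to 3′ on the gene's own strand, with the paired decamers in capitals:
MDM2 (chr12:68808919-68808946, plus strand, 2 mismatches): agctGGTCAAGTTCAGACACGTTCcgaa
MDM2 (chr12:68808957-68808984, plus strand, 3 mismatches): aaggAGTTAAGTCCTGACTTGTCTccag
SESN1 (chr6:109009014-109009041, minus strand, 3 mismatches): gtctGGACAAGTCTCCACAAGTCAgaaa
The first decamer of the SESN1 match fits the element with 0 mismatches and the second with 3. A match of letters is a description and shows no binding.

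DNA methylation in human cells sits on the dinucleotide CpG, and decitabine acts on it, so the CpG content upstream of the members was counted as well. The median of all windows was 11 CpG in 250 upstream bases. CDKN1A had 27, BTG2 30 and the outermost MDM2 start 33, while TP53I3 had 6 and GDF15 9. The inner MDM2 starts had 17, the 3 SESN1 starts 17 to 32, and the paired starts of ZMAT3 and FDXR 31 and 2, and 23 and 4. Among the members with a window that were called with DAC in siLuc cells, CDKN1A was thus rich in CpG, and GDF15 and TP53I3 were below the median of all windows. The stretches below, free of annotated exons and with each CpG in capitals, set CDKN1A beside the outermost MDM2 start. The MDM2 matches printed above lie at its inner starts instead. CDKN1A was called with DAC in both siRNA arms and MDM2 in neither. After centring for GC content, described further on, their log2 ratios with DAC in siLuc cells were 1.14 and 0.94. Methylation itself was not measured in the files used here.
CDKN1A (chr6:36678560-36678657, plus strand, 12 CpG): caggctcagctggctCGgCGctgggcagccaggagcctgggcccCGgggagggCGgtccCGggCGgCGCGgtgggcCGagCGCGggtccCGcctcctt
MDM2 (chr12:68807922-68808171, plus strand, 33 CpG): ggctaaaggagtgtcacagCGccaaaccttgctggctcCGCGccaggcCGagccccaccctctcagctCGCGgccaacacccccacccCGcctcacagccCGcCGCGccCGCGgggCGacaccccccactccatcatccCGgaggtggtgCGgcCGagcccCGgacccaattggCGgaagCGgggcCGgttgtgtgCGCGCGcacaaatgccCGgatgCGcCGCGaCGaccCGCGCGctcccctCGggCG
Both stretches are dense in CpG. The GDF15 window was the only member window with TATAAA in the 50 bases before the start, which 2.63% of all windows have, and a GC box (GGGCGG or its reverse complement CCGCCC) stood in 42.6% of all windows.

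With DAC in siLuc cells, CDKN1A, GDF15, PHLDA3 and TP53I3 rose between 2.87-fold and 3.97-fold. The other 6 members were not called, and their log2 ratios ran from -0.25 for SESN1 to 0.98 for FDXR. All 10 members were tested, and 4 were called, each higher, where 13.5% of the 17504 tested genes were called, 8.71% higher and 4.78% lower. The 4 called members have transcripts of 58.1% to 62.9% GC, and ratios over all genes moved with GC content, as the bin medians further on show. The members' median log2 ratio was 0.78, beside 0.23 over all tested genes. In siStau1 cells CDKN1A and GDF15 rose again with DAC, 3.44-fold and 3.35-fold, and the other 8 members were not called. That is 2 called of 10, both higher, beside 7.46% of 16979 tested genes called, 4.56% higher and 2.89% lower. The median there was 0.56 for the members and 0.11 for all tested genes. Because the DAC comparisons of the arms share no group, their values stand side by side below, and no test of the difference was possible without values per library.

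**Figure D1:**
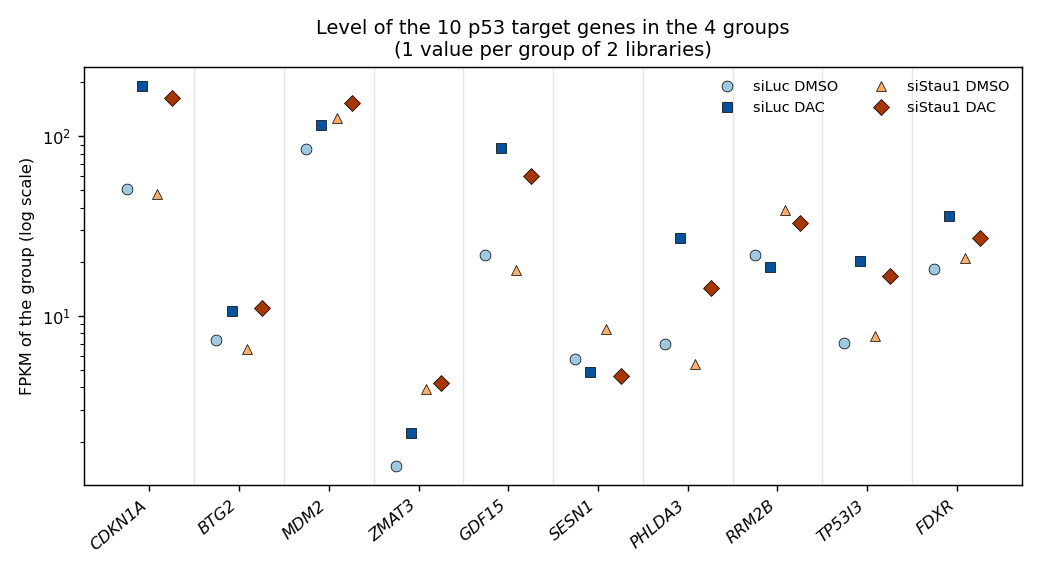
FPKM on a log axis for each of the 10 genes in the 4 groups, 1 point per group of 2 libraries, with no error because no value per library is given. CDKN1A, GDF15, PHLDA3, TP53I3, FDXR and BTG2 have both DAC groups above both DMSO groups, while MDM2, ZMAT3 and RRM2B have both siStau1 groups above both siLuc groups.

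Arrest of the cell cycle is the part of CDKN1A and BTG2. CDKN1A (ENSG00000124762.13, chromosome 6, 36676460 to 36687339, hg38, plus strand) encodes p21, which inhibits cyclin-dependent kinases and binds PCNA, the sliding clamp of DNA replication. Its level was 51.1 FPKM (DMSO) and 192 (DAC) with siLuc, and 47.5 (DMSO) and 163 (DAC) with siStau1. Both DAC groups were thus high, both DMSO groups low, and the siRNA groups were close within either. The log2 ratio of DAC over DMSO was 1.90 in siLuc and 1.78 in siStau1 cells, with q = 0.00162 for each in the authors' deposited table, the smallest value that table holds. Among genes with at least 1 FPKM, it lay at percentile 96 in siLuc DAC and at percentile 85.2 in siLuc DMSO. The siStau1 over siLuc ratios were -0.11 with DMSO (q = 0.918) and -0.23 with DAC (q = 0.770), both from the authors' deposited table.

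The relatives of p21 were not called. CDKN1B, encoding p27, had 13.6 FPKM under DMSO and 9.89 under DAC in siLuc cells, and 15.5 and 8.99 in siStau1 cells, and was not called in any comparison. The ratio of the CDKN1A level to the CDKN1B level was 3.76, 19.4, 3.07 and 18.1 in the same order of groups. None of the 6 other CDK inhibitor genes (CDKN1B, CDKN1C, CDKN2A, CDKN2B, CDKN2C and CDKN2D) was called in any of the 5 comparisons reported. Of all tested genes, 13.5% (siLuc) and 7.46% (siStau1) were called with DAC, and 0.799% to 4.98% in the other comparisons. At such shares the absence of calls among 6 genes does not set them apart. Their median log2 ratio with DAC was 0.03 in siLuc and -0.16 in siStau1 cells. Among them CDKN2B, encoding p15, had log2 ratios with DAC of 1.55 and 1.77 at levels of 0.615 to 4.95 FPKM, with q = 0.665 and 0.526 in the authors' deposited table.

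BTG2 (ENSG00000159388.5, chromosome 1, 203305491 to 203309602, plus strand) encodes an antiproliferative protein that recruits the machinery removing poly(A) tails from mRNA. It had 7.38 FPKM (DMSO) and 10.7 (DAC) with siLuc, and 6.52 (DMSO) and 11.1 (DAC) with siStau1. Both DAC groups were above both DMSO groups, but neither difference was called (log2 ratio 0.53 with q = 0.534 in siLuc, 0.75 with q = 0.289 in siStau1, in the authors' deposited table). Its paralog BTG1 was called with DAC in siStau1 cells, from 6.33 to 16.9 FPKM (log2 ratio 1.40, q = 0.0266 in the authors' deposited table). In siLuc cells BTG1 had 8.31 FPKM with DMSO and 25.6 with DAC, which was not called (log2 ratio 1.61, q = 0.0687 in the authors' deposited table).

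MDM2 and ZMAT3 both act back on p53. MDM2 (ENSG00000135679.23, chromosome 12, 68808176 to 68850686, plus strand), the gene whose paired elements are printed above, encodes the ubiquitin ligase that marks p53 for degradation. Its levels were 85.3 FPKM under DMSO and 116 under DAC in siLuc cells, and 127 and 153 in siStau1 cells, the lowest in the control group and the highest where both treatments met. None of these steps was called: the log2 ratio was 0.44 and 0.27 for DAC in the siLuc and siStau1 arms, 0.58 and 0.40 for siStau1 with DMSO and DAC, and q lay between 0.593 and 0.837 in the authors' deposited table. Across the full contrast of siStau1 DAC over siLuc DMSO the log2 ratio was 0.85 (p = 0.054, q = 0.292 in the authors' deposited table). MDM2 stood at 1.67 times the level of CDKN1A in siLuc DMSO and at 0.605 times in siLuc DAC. In siStau1 cells this ratio went from 2.68 to 0.94, so the order of these 2 targets turned in both arms. Their transcripts differ in GC content (41.9% for MDM2, 58.1% for CDKN1A), with which ratios moved over all genes. After centring within bins of like GC content, described further on, the log2 ratios with DAC lay closer together. They were 0.94 for MDM2 and 1.14 for CDKN1A in siLuc cells, and 0.68 and 1.15 in siStau1 cells. The part of GC content in this turn was not tested.

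MDM2 shares its locus with other annotated genes. The pseudogene AC025423.2, on the same strand, was listed at 34.2, 26.9, 70.7 and 42.4 FPKM (siLuc without and with DAC, then siStau1 without and with DAC), and how fragments were divided between it and MDM2 is not given in the sources used here. CPM, on the opposite strand, was between 1.24 and 1.69 FPKM. MDM2's partner MDM4, which holds p53 inactive without being a strong ligase itself, had 21.3, 27.6, 20.3 and 26.8 FPKM in this order and was not called, and MDM2 stood 4 to 6.26 times above it.

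ZMAT3 (ENSG00000172667.10, chromosome 3, 179017223 to 179072279, minus strand) encodes a zinc finger protein that binds RNA and regulates splicing. It was the lowest member in every group, with 1.46 FPKM (DMSO) and 2.22 (DAC) with siLuc, and 3.90 (DMSO) and 4.22 (DAC) with siStau1. Here the siStau1 groups were the high ones. With DMSO it rose 2.67-fold in siStau1 over siLuc (log2 ratio 1.36, q = 0.0254 in the authors' deposited table), and with DAC the ratio was 1.9-fold and not called (q = 0.293 in the same authors' deposited table). When p-values were adjusted within the DMSO comparison alone, the q-value of ZMAT3 was 0.262 and the call was lost. DAC over DMSO gave log2 ratios of 0.57 in siLuc and 0.11 in siStau1 cells, neither called.

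Among the secreted and signalling members, GDF15 (ENSG00000130513.6, chromosome 19, 18374731 to 18389176, plus strand) encodes a stress-induced hormone that acts on the brainstem to curb appetite. It had 21.8 FPKM under DMSO and 86.5 under DAC in siLuc cells, and 18.1 and 60.4 in siStau1 cells. Its order of groups was that of CDKN1A, with the DAC groups far above the DMSO groups. The log2 ratio of DAC over DMSO was 1.98 in siLuc and 1.74 in siStau1 cells (q = 0.00162 for each in the authors' deposited table). With DAC, siStau1 cells had 0.698 times the level of siLuc cells, which was not called (log2 ratio -0.52, q = 0.424 in the authors' deposited table).

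PHLDA3 (ENSG00000174307.6, chromosome 1, 201464383 to 201469237, minus strand) encodes a protein with a pleckstrin homology domain that competes with the kinase AKT for membrane lipids. Its levels were 6.98 FPKM (DMSO) and 27.2 (DAC) with siLuc, and 5.42 (DMSO) and 14.4 (DAC) with siStau1. It rose 3.9-fold with DAC in siLuc cells (log2 ratio 1.95, q = 0.0248 in the authors' deposited table), and the 2.65-fold difference in siStau1 cells was not called (q = 0.316 there). In siStau1 DAC it was at 0.528 times siLuc DAC, the lowest such ratio among the 10 members and not called (log2 ratio -0.92, q = 0.303 in the authors' deposited table). The paralog PHLDA2, an imprinted gene of the same family, was called with DAC in both arms, from 19.3 to 96.9 FPKM with siLuc and from 21.1 to 69.3 with siStau1 (q = 0.00162 and 0.0101 in the authors' deposited table). GC centring took the PHLDA2 log2 ratio from 2.32 to 1.25 in siLuc and from 1.71 to 0.95 in siStau1 cells. The paralog PHLDA1 was called lower with DAC in siLuc cells, from 48.3 to 21.8 FPKM (q = 0.00733 in the authors' deposited table), and had 43.3 and 27.4 FPKM in siStau1 cells, which was not called.

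SESN1 (ENSG00000080546.13, chromosome 6, 108986437 to 109094819, minus strand) encodes sestrin 1, which restrains the growth kinase complex mTORC1 under stress. It had 5.80 FPKM under DMSO and 4.87 under DAC in siLuc cells, and 8.46 and 4.63 in siStau1 cells. It was the only member with both DAC groups below both DMSO groups, and no difference was called. The log2 ratio with DAC was -0.25 in siLuc (q = 0.859) and -0.85 in siStau1 cells (p = 0.0491, q = 0.276), all from the authors' deposited table. Its paralog SESN2, a target of p53 and of the stress factor ATF4, rose from 2.67 to 14.1 FPKM with DAC in siLuc cells (log2 ratio 2.36, q = 0.00162 in the authors' deposited table). SESN1 thus stood at 2.17 times SESN2 in siLuc DMSO and at 0.345 times in siLuc DAC. In siStau1 cells the ratio went from 3.75 to 0.71. The SESN1 transcript has 43.4% GC and that of SESN2 59.5%. After GC centring their log2 ratios with DAC in siLuc cells were 0.19 for SESN1 and 1.565 for SESN2.

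The members of metabolism and nucleotide supply are RRM2B, TP53I3 and FDXR. RRM2B (ENSG00000048392.11, chromosome 8, 102204502 to 102239118, minus strand) encodes p53R2, a small subunit of ribonucleotide reductase that makes deoxynucleotides outside S phase. It had 22.0 FPKM (DMSO) and 18.9 (DAC) with siLuc, and 38.9 (DMSO) and 32.9 (DAC) with siStau1, so that both siStau1 groups were above both siLuc groups. Neither siStau1 difference was called: the log2 ratio was 0.82 with DMSO (p = 0.0459, q = 0.265) and 0.80 with DAC (p = 0.0623, q = 0.318) in the authors' deposited table. The S-phase subunit RRM2 was at 242.8 FPKM in siLuc DMSO and 11 times the level of RRM2B there, 12.4 times in siLuc DAC, and 5.51 and 6.94 times in siStau1 with DMSO and DAC. The large subunit RRM1, with which either small subunit pairs, fell with DAC from 138.7 to 35.0 FPKM with siLuc and from 140.1 to 56.5 with siStau1 (q = 0.00917 and 0.00162 in the authors' deposited table).

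TP53I3 (ENSG00000115129.13, chromosome 2, 24077433 to 24085861, minus strand), also known as PIG3, encodes a quinone oxidoreductase. It had 7.06 FPKM under DMSO and 20.2 under DAC in siLuc cells, and 7.69 and 16.6 in siStau1 cells. Both DAC groups were high, but only the siLuc difference was called (log2 ratio 1.51, q = 0.0404 in the authors' deposited table); in siStau1 cells it was 1.10 with q = 0.363 in the authors' deposited table. FAM228B overlaps it on the other strand at 0.816 to 3.88 FPKM and was not called with DAC in either arm.

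FDXR (ENSG00000161513.11, chromosome 17, 74862497 to 74873031, minus strand) encodes ferredoxin reductase, which passes electrons from NADPH to mitochondrial ferredoxins. Its levels were 18.3 FPKM (DMSO) and 36.0 (DAC) with siLuc, and 21.1 (DMSO) and 27.2 (DAC) with siStau1. The 1.97-fold difference in siLuc cells was not called in the authors' deposited table (log2 ratio 0.98, p = 0.0079, q = 0.0844), although adjustment within that comparison alone gave 0.0479. In siStau1 cells the log2 ratio was 0.36 (q = 0.753 in the authors' deposited table). Its electron acceptor FDX1 fell with DAC in siLuc cells from 13.6 to 3.73 FPKM (log2 ratio -1.84, q = 0.00162 in the authors' deposited table), and FDXR went from 1.34 to 9.66 times the level of FDX1. In siStau1 cells FDX1 had 11.7 and 7.26 FPKM, which was not called (q = 0.320 in the authors' deposited table), and the ratio was 1.81 and 3.74. The FDXR transcript has 61.8% GC and that of FDX1 42%. After GC centring their log2 ratios with DAC in siLuc cells were -0.09 for FDXR and -1.34 for FDX1. The other ferredoxin, FDX2, had 14.4 and 43.0 FPKM in siLuc and 11.7 and 28.1 in siStau1 cells, neither called.

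**Figure D2:**
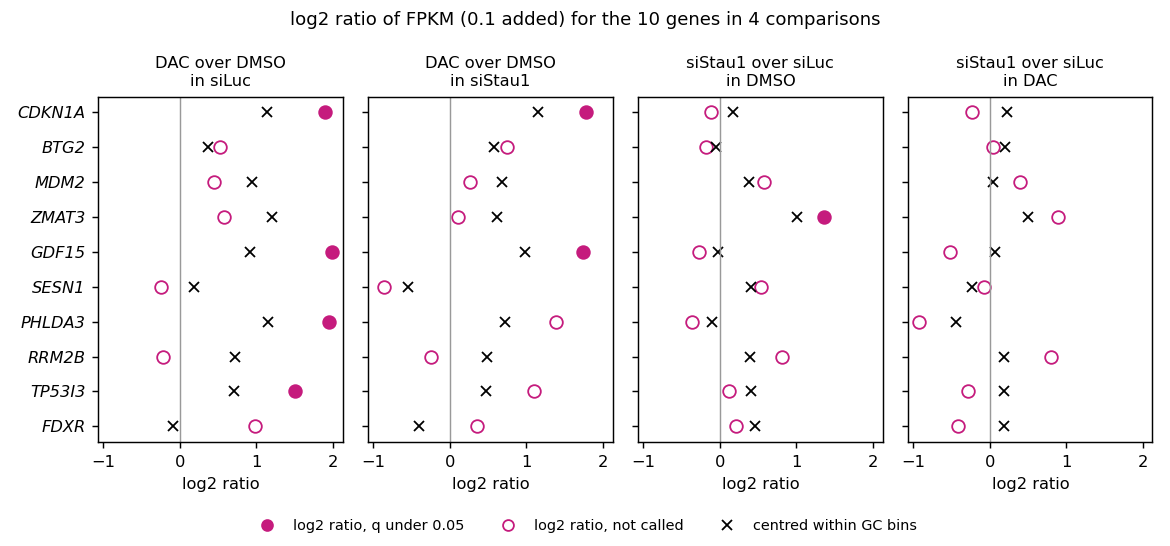
log2 ratio of FPKM for each gene in 4 comparisons, filled where the authors' q-value was under 0.05, with crosses for the GC-centred ratio. CDKN1A and GDF15 are filled in both DAC panels, ZMAT3 alone is filled for siStau1 over siLuc in DMSO, and no gene is filled for siStau1 over siLuc in DAC.

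The siRNA comparisons held 1 called difference among the members. In DMSO, 1 member of 10 was called in siStau1 over siLuc, ZMAT3, beside 0.799% of 15893 tested genes called, 0.333% higher and 0.466% lower. The members' median log2 ratio was 0.17, beside -0.02 over all tested genes. In DAC no member was called, and none had an unadjusted p under 0.05, where 0.904% of 17263 tested genes were called, 0.434% higher and 0.469% lower, and 6.95% had such a p in the authors' deposited table. The ratios with DAC ran from -0.92 for PHLDA3 to 0.89 for ZMAT3, with a median of -0.15 beside -0.14 over all tested genes. For siStau1 DAC over siLuc DMSO, CDKN1A (log2 ratio 1.67), GDF15 (1.47) and ZMAT3 (1.47) rose, 3 of 10, beside 4.98% of 16909 tested genes called, 4.02% higher and 0.964% lower. This contrast shares siLuc DMSO or siStau1 DAC with each of the other 4 comparisons, and each siRNA comparison shares groups with the DAC comparisons, so these are in part the same measurements.

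The size of the DAC ratio was also set side by side in the 2 arms. The difference of the log2 ratios, siStau1 minus siLuc, was below 0 for 9 of 10 members, with BTG2 at 0.23 as the exception, and its median was -0.33. After GC centring it was below 0 for 7 of 10, with CDKN1A (0.01), GDF15 (0.07) and BTG2 (0.22) above, and its median was -0.26. Over the 15956 genes tested in both arms the median was -0.02 and 51% were below 0. FDXR (-0.62), SESN1 (-0.61) and PHLDA3 (-0.56) had the lowest values, and RRM2B (-0.02) and CDKN1A (-0.13) were the closest to 0 among the 9. These are differences of single group values with no error, and were not tested.

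Ratios in these data moved with the GC content of the transcript, across all genes and among the members. Over 10953 protein-coding genes with at least 1 FPKM in both siLuc groups, sorted by the GC content of the longest transcript into 20 bins, the median log2 ratio of DAC over DMSO went from -0.95 in the lowest bin to 1.20 in the highest. In siStau1 cells it went from -0.72 to 0.86, and for siStau1 over siLuc it went the other way, from 0.42 to -0.24 with DMSO and from 0.61 to -0.64 with DAC. The members lie in separate ranges on this axis: MDM2, SESN1, ZMAT3 and RRM2B have 36.4% to 43.4% GC, and the other 6 have 50.3% to 62.9%. The 4 members called with DAC in siLuc cells have 58.1% to 62.9%, and ZMAT3, called for siStau1 in DMSO, has 39.5%. With DAC in siLuc cells the median log2 ratio was 0.11 over the 4 members low in GC and 1.70 over the other 6.

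After subtracting the median of its GC bin from each ratio, these medians were 0.84 and 0.81. CDKN1A had a DAC ratio of 1.14 in siLuc and 1.15 in siStau1 cells, GDF15 of 0.91 and 0.98, PHLDA3 of 1.16 and 0.72, and TP53I3 of 0.71 and 0.47. The members low in GC moved up: MDM2 had 0.94 and 0.68, ZMAT3 1.20 and 0.62, and RRM2B 0.73 and 0.48, against uncentred values of -0.22 and -0.24 for RRM2B. FDXR went from 0.98 to -0.09 in siLuc and from 0.36 to -0.40 in siStau1 cells. For siStau1 over siLuc in DMSO, ZMAT3 had 1.01 and RRM2B 0.40 after centring, and with DAC 0.51 and 0.19. SESN1 after centring was at 0.19 with DAC in siLuc cells, against -0.25 before, and at -0.54 in siStau1 cells, against -0.85. The part of GC content in the uncentred ratios was not tested beyond this subtraction, and centred values carry no q-value.

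**Figure D3:**
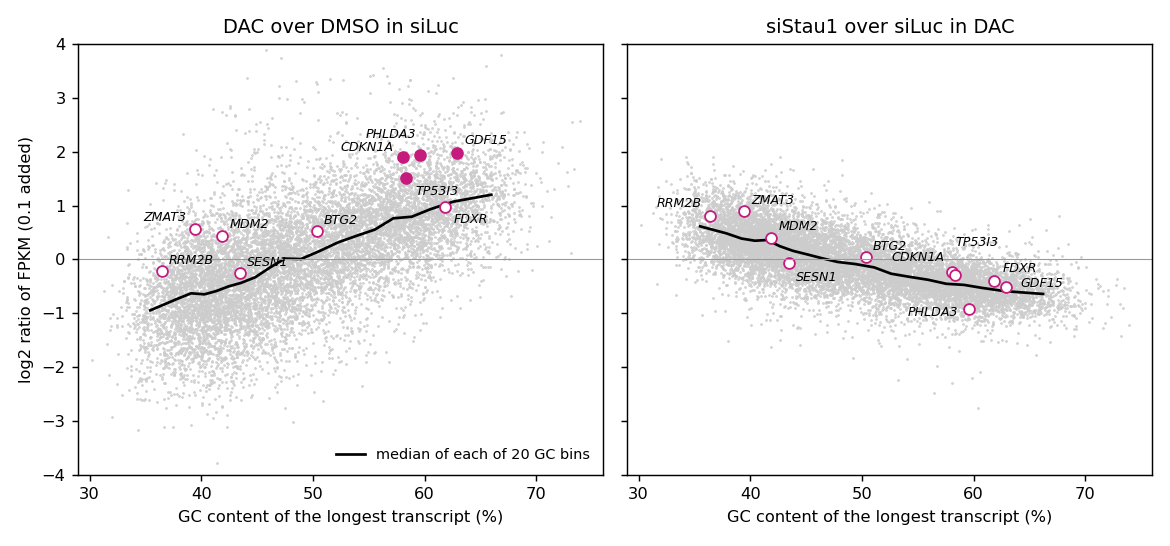
log2 ratio of FPKM against GC content of the longest transcript for protein-coding genes at 1 FPKM or more in each group (grey; genes beyond the axes are not drawn), the median of each of 20 GC bins (line) and the 10 members (circles, filled where called). With DAC in siLuc the line rises from -0.95 to 1.20 and 9 members lie above it, FDXR just under it; for siStau1 over siLuc in DAC it falls from 0.61 to -0.64.

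The rest of the pathway was read from lists of genes grouped by role. The counts are read against the shares of all tested genes called with DAC, 13.5% in siLuc and 7.46% in siStau1 cells, and a list near its share is not set apart by its count. Of 19 regulators and relatives of p53, none was called higher, and with DAC 2 were lower in siLuc and 1 in siStau1 cells. These were RPL5 and RPL11, ribosomal proteins that bind and inhibit MDM2 when ribosome assembly is disturbed. RPL5 fell from 1493 to 349 FPKM with siLuc and from 1789 to 646 with siStau1, and RPL11 fell from 2853 to 1223 in siLuc cells (q = 0.00162, 0.00162 and 0.0165 in the authors' deposited table). GC centring took the log2 ratio of RPL5 from -2.10 to -1.36 in siLuc and from -1.47 to -0.85 in siStau1 cells. That of RPL11 in siLuc cells went from -1.22 to -1.24. The list's median log2 ratio was 0.03 with DAC in siLuc cells, beside 0.23 over all tested genes.

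Of 29 further p53 targets in arrest, repair and metabolism, 6 were called higher and 1 lower with DAC in siLuc cells, and 4 higher and none lower in siStau1 cells. PLK3, a stress-responsive kinase, rose from 5.38 to 29.3 FPKM with siLuc and from 3.48 to 21.4 with siStau1, log2 ratios of 2.42 and 2.59. After GC centring these were 1.49 and 1.92. SERTAD1, a cofactor of E2F transcription, rose from 13.2 to 52.4 and from 8.69 to 29.5 FPKM. SFN, encoding the checkpoint protein 14-3-3 sigma, rose from 77.8 to 237 FPKM with siLuc and from 47.8 to 166 with siStau1, and after GC centring its log2 ratios were 0.53 and 1.04. TRIM22, a gene that interferon also induces, rose from 0.567 to 6.78 FPKM with DAC in siStau1 cells, and its levels of 1.28 and 9.10 in siLuc cells were not called different (q = 0.162 in the authors' deposited table). RPS27L, a ribosomal protein paralog, fell from 68.0 to 21.9 FPKM in siLuc cells. The medians of this list were 0.37 and 0.24 in the 2 arms, beside 0.23 and 0.11 over all tested genes. For siStau1 over siLuc, none was called with DMSO and SESN2 alone, lower, with DAC (14.1 to 6.53 FPKM, q = 0.0429 in the authors' deposited table).

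Of 13 p53 targets in apoptosis, of which 12 were tested, AEN alone was called, higher with DAC in both arms, 1 of 12 beside the 13.5% and 7.46% of all genes: this nuclease gene rose from 21.4 to 69.5 FPKM with siLuc and from 17.4 to 48.0 with siStau1 (q = 0.00162 for each in the authors' deposited table). Among 9 long non-coding RNA genes linked to p53, MEG3 was the only one called, from 0.0912 to 5.67 FPKM with DAC in siStau1 cells. In siLuc cells MEG3 was listed at 0 with DMSO and at 10.8 FPKM with DAC, which was not called (q = 0.403 in the authors' deposited table). DINOL, the non-coding gene at the CDKN1A promoter on the other strand, stayed at 0.285 FPKM or less in all 4 groups.

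Genes whose products p21 binds, and genes that it represses, were called in both directions with DAC in siLuc cells. Of 12 cyclins, kinases and PCNA that p21 binds, CDK6, CCND3 and CCND1 were higher and PCNA and CDK1 lower with DAC in siLuc cells, and CDK6 and CCND1 higher and PCNA and CDK1 lower in siStau1 cells. CDK6, a G1 kinase, rose from 7.24 to 30.1 FPKM with siLuc and from 7.69 to 20.9 with siStau1, and its cyclin partner CCND1 from 69.6 to 189 and from 63.2 to 168. CDK1, the mitotic kinase, fell from 95.4 to 32.9 FPKM with siLuc and from 114.5 to 58.5 with siStau1 (q = 0.00632 and 0.0460 in the authors' deposited table), and PCNA fell from 333.6 to 129.7 FPKM with siLuc and from 363 to 183 with siStau1. Of 18 genes that p21 represses through the DREAM complex, CDK1 and CCNB2 were lower and CDC20 and MYBL2 higher with DAC in siLuc cells. CCNB2 fell from 101.2 to 36.0 FPKM, while CDC20 rose from 139.3 to 258 and MYBL2 from 40.6 to 74.6. In siStau1 cells BUB1 and CDK1 were lower and none higher. Centring for GC content took the siLuc log2 ratio of CDC20 from 0.89 to 0.13 and of MYBL2 from 0.87 to -0.06. It also made the lower calls smaller: CDK1 went from -1.53 to -0.79 in siLuc and from -0.97 to -0.35 in siStau1 cells, CCNB2 from -1.49 to -1.16 in siLuc and BUB1 from -1.001 to -0.59 in siStau1 cells. The median log2 ratio of these 18 genes went from -0.15 to -0.32 in siLuc and from -0.05 to -0.37 in siStau1 cells.

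GDF15 and SESN2 also respond to the integrated stress response, which ATF4 drives, and 10 of its genes were listed. With DAC 5 were higher and 1 lower in siLuc cells, and 3 were higher in siStau1 cells, of 9 tested in each. CHAC1, which degrades glutathione, rose from 2.83 to 19.2 FPKM with siLuc and from 1.17 to 6.73 with siStau1, and ATF3 rose from 28.7 to 96.0 and from 12.9 to 60.8. After GC centring the siLuc log2 ratio of CHAC1 went from 2.72 to 1.65 and that of ATF3 from 1.74 to 1.89. The gene called lower in siLuc cells was PSAT1, from 60.9 to 30.3 FPKM (q = 0.0408 in the authors' deposited table). ATF4 had 303 and 316 FPKM in siLuc and 204 and 220 in siStau1 cells, DMSO first, and was not called. For siStau1 DAC over siLuc DMSO, ASNS and PSAT1 were called lower (log2 ratio -1.32 and -1.09) and none higher. In siStau1 over siLuc with DAC, 4 were lower: CHAC1, TRIB3, SESN2 and PPP1R15A (log2 ratio -1.50, -1.11, -1.10 and -1.05). With DMSO, PPP1R15A was lower, from 34.6 to 14.8 FPKM. Of all tested genes, 0.469% were called lower with DAC and 0.466% with DMSO. These 4 genes have 58.8% to 62.6% GC, and after GC centring the ratios with DAC were -0.91, -0.58, -0.63 and -0.58 in the same order. That of PPP1R15A with DMSO went from -1.22 to -0.94. The log2 ratio of GDF15 in these 2 comparisons was -0.52 and -0.27, neither called. The median of the list for siStau1 over siLuc was -0.72 with DAC and -0.64 with DMSO, against -0.15 and 0.17 for the 10 members.

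**Figure D4:**
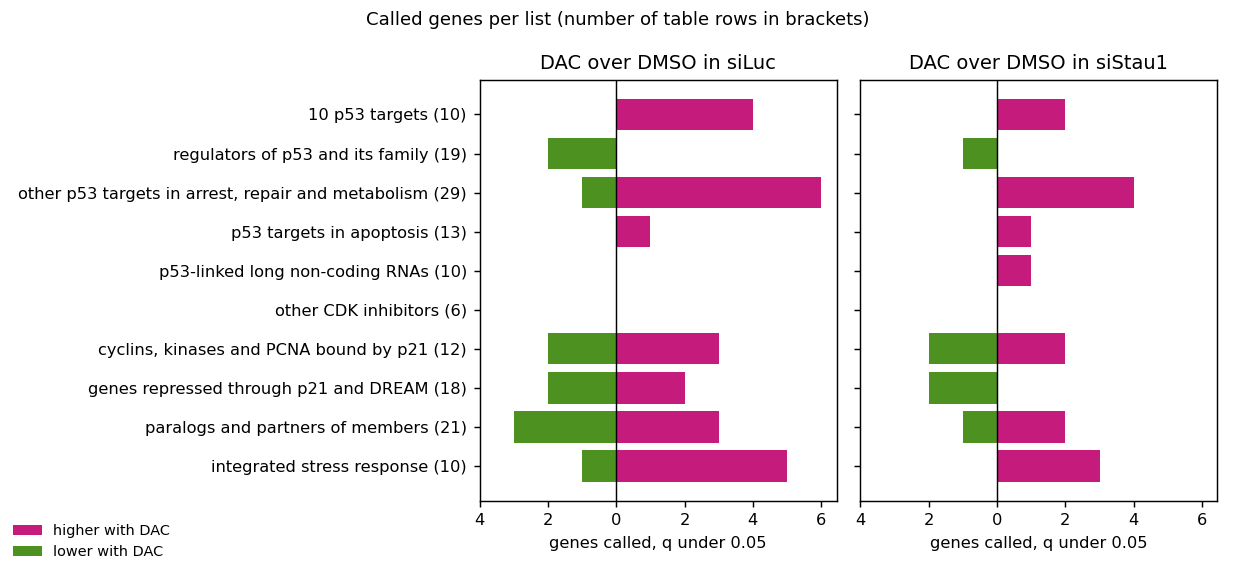
Number of genes called higher (right of 0) and lower (left of 0) with DAC in each list, in siLuc and siStau1 cells, with the number of table rows of the list in brackets. The members have 4 and 2 called higher and none lower, the regulators have only lower calls, and the other CDK inhibitors have none.

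On levels not centred for GC content, the members did not form 1 profile over the 4 groups. Among 10685 protein-coding genes with at least 1 FPKM in all groups, likeness to CDKN1A was measured as the Euclidean distance between log2 FPKM profiles, each centred on its own mean, over 4 group values. The nearest genes were MCAM (distance 0.0552), ATOX1 (0.134), GREB1L (0.135), PLBD2 (0.16) and ZNF697 (0.164), none of them in the lists used here. GDF15 ranked 12 (0.234), PHLDA3 ranked 298 and TP53I3 317. FDXR, BTG2, MDM2, ZMAT3, RRM2B and SESN1 followed at ranks 2450, 2504, 4363, 6093, 7291 and 7849. The last 4 of these, MDM2, ZMAT3, RRM2B and SESN1, are the members low in GC (36.4% to 43.4%). The part of GC content in the ranks was not tested. With 4 points a profile can resemble many others, so these ranks are a description.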

How the data were processed

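Total RNA of 8 libraries was analysed. Per the file headers, the authors deposited a table in the layout of Cuffdiff with 1 FPKM per group and the p-value and q-value of each of 6 comparisons. The submitters' processing notes name bcl2fastq 2.20, HISAT2 2.1.0, featureCounts, DESeq 1.36.0, Cuffdiff 2.2.1, Cuffnorm 2.2.1 and hg38, with no roles. The deposited q-value equals the Benjamini-Hochberg value over 102180 tests (largest gap 5.3e-07). Calls are the authors', since edgeR and other count tests need values per library. Depth is unknown, so no interval is given. Computed here, with pandas 2.3.3 and NumPy 2.4.6, were log2 ratios with a pseudocount of 0.1 FPKM, centring within 20 bins of transcript GC content (GENCODE 29) and promoter matches. The Benjamini-Hochberg adjustment, the centring and the match search were tested on simulated data, and the log2 ratios were not. All members are described. Of the other lists, up to 4 called genes per list and comparison, with at least 1 FPKM in a group and the largest ratios, fall under the naming rule, as do MDM4, STAU1, overlapping genes and the 5 profiles nearest CDKN1A. CDKN1B, CDKN2B, RRM2, FDX2, PHLDA1, DINOL, ATF4, the keratin sums, CDX2 and VIL1, and the second arm of a gene called in 1 arm, were added after values were seen. A withheld item is not reported here. Members and lists were chosen with earlier results of these data known. Alternatives were q-value limits, pseudocounts, centring and mismatch limits. DNA beyond the 300-base windows was not searched.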

Additional observations from a re-analysis of the deposited data

How the results depend on the processing

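At a q-value limit of 0.01 the members called with DAC in siLuc cells went from 4 to 2, and the 1 called for siStau1 in DMSO was lost (0 called), as it was when p-values were adjusted within that comparison only (0 called). The members' median log2 ratio for siStau1 over siLuc in DAC was 0.19 after GC centring, against -0.15. Members matching the p53 element numbered 1 with up to 2 mismatches and 4 with up to 3, both settings chosen after seeing the data, against 0. The cause of these shifts was not tested. Of 50 single ratios, GC centring changed the sign of 10 and subtracting the median of all genes 1, none of them called, and pseudocounts of 0.01 and 1 changed none. GC centring moved 16 of the 50 by over 1.5 times, among them 6 called ratios, which became smaller: CDKN1A, GDF15, PHLDA3 and TP53I3 with DAC in siLuc cells, and CDKN1A and GDF15 in siStau1 cells. No paired analysis was possible because the table gives 1 value per group. Leaving out single replicates was not run for the same reason, and the planned wider windows around start sites were not run because no genome sequence was used here.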
